A study of Mus musculus with 14 samples.

Results

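The thymus-to-tumour change of the innate-like killer T cells named ILTCk, which carry an αβ T cell receptor (TCR), was set beside that of conventional CD8 T cells, using 8 of the 14 samples of a mouse study of self-reactive innate-like T cells in cancer. ILTCk progenitors (ILTCkP) and CD8 single-positive cells (CD8SP) were sorted from the thymus, and their model is labelled C57BL/6. Tumours gave NK1.1+ ILTCk and PD1+ Tconv, the latter being PD-1-positive conventional T cells, and their model is labelled retrogenic. Retrogenic mice have a blood system grown from stem cells to which a TCR gene was added. The sources used here do not give the receptor, the tumour model, the age or the sex. Each group had 2 bulk RNA libraries, called biological replicates by the series text, but it is not stated that the 2 came from different animals. The p-values therefore reflect how far these samples vary, and that variation may be technical.

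Most thymocytes whose TCR binds self strongly are deleted or redirected. Agonist selection is the alternative in which strong self-recognition yields innate-like lineages, and the progenitors of such cells carry PD-1 and other products of strong TCR signalling. Conventional CD8 T cells leave the thymus naive and acquire PD-1 and other inhibitory receptors when antigen persists, as it does in tumours.

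The sample characteristics name the tumour ILTCk cells ILTCkP as well, against their titles, and the titles were followed. The members are the 8 libraries, read as a pair of paths. The ILTCk path is NK1.1+ ILTCk against ILTCkP, and the conventional path is PD1+ Tconv against CD8SP. Both paths compare the tumour table of counts with the thymic table, so tissue, mouse model and table cannot be told apart within a path. The difference of the paths is the log2 fold change of the ILTCk path minus that of the conventional path. A shift that a gene has equally in both lineages cancels in it, and it also equals the log2 gap between the lineages in the tumour minus their gap in the thymus. Neither progeny nor fate was traced, and the 2 tumour groups are not shown to descend from the thymic groups.

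The tumour gates took TCRβ+, TCRγδ-negative, CD4-negative, CD8α+ cells, PD-1-negative and NK1.1+ for ILTCk and PD-1+ and NK1.1-negative for Tconv. The thymic ILTCkP gate left out CD1d tetramer binders and kept cells that lacked CD4 and CD8α or were dull for them, and its remaining markers are known only in part. Pdcd1, Klrb1c (NK1.1), Cd8a, Cd8b1 and Cd4 were therefore set in part by the sorts. Total counts were 16530085 to 32097301 per library and 17741 to 24089 genes were detected. Pearson coefficients of log2 CPM (counts scaled to a fixed library total) between replicates, across genes, were 0.993 for CD8SP, 0.971 for ILTCkP, 0.936 for NK1.1+ ILTCk and 0.909 for PD1+ Tconv.

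Some tumour libraries stood apart from their labels. The summed CPM of the 4 CD3 chain genes, which define T cells, was 2985 to 4143 in the thymic libraries, 1971 and 389 in NK1.1+ ILTCk, with 2520 and 1627 in PD1+ Tconv. The summed CPM of 14 macrophage and monocyte genes was 24.1 to 41.3 in the thymus, 9354 and 26380 in NK1.1+ ILTCk, with 222 and 1403 in PD1+ Tconv. For 10 dendritic cell and MHC class II genes it was 104 to 136, 15080 and 9845, and 423 and 983, in the same order. For 13 mammary and tumour epithelium genes it was 8.24 to 10.2, 6584 and 7736, and 2273 and 2502. For 12 salivary and lacrimal gland genes it was 0 to 0.234, 1396 and 11930, and 1466 and 281300. Bpifa2, a salivary secreted protein gene, took 19.5% of the counts of PD1+ Tconv replicate 2, and Mucl2 took 4.26% of those of NK1.1+ ILTCk replicate 2. In these bulk libraries fewer cells of a type and less RNA per cell cannot be told apart.

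**Figure D1:**
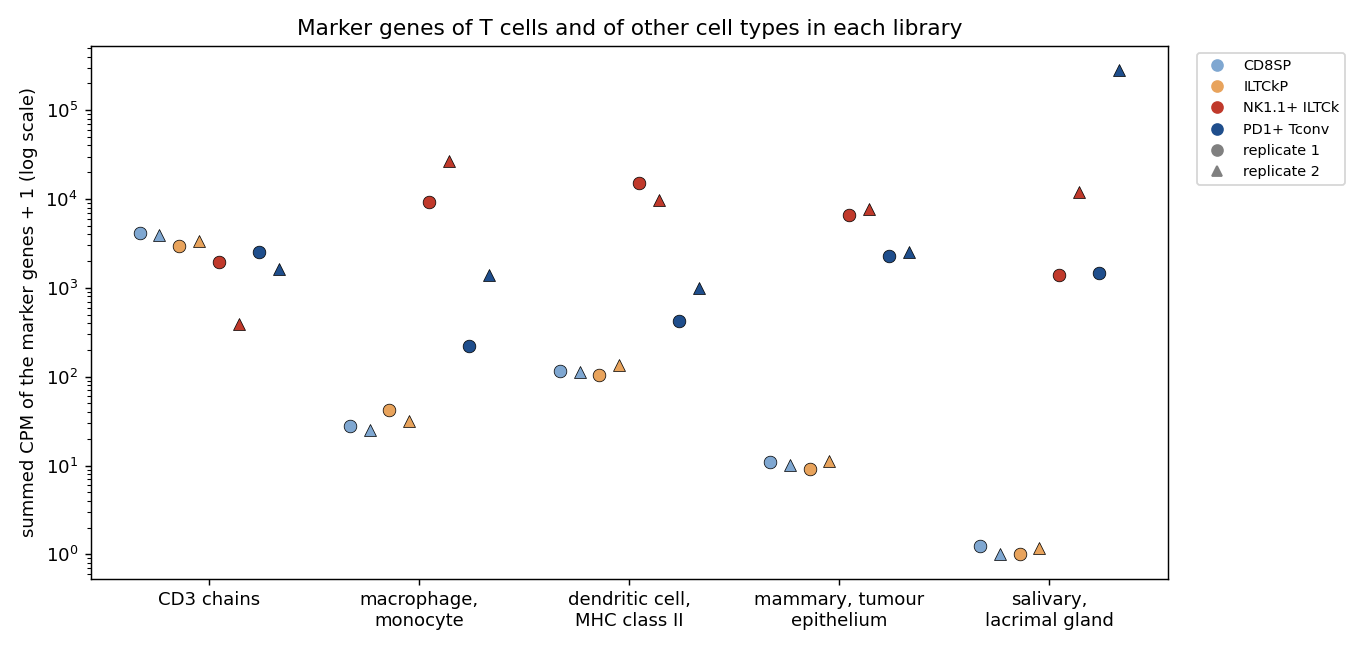
Summed CPM plus 1, on a log axis, of marker genes of T cells and of 4 other tissues or cell types, with 1 point per library. CD3 chains were lowest in NK1.1+ ILTCk replicate 2 (389 CPM), while macrophage, MHC class II and epithelial genes were higher in all 4 tumour libraries than in all 4 thymic ones.

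Both lineages changed widely between thymus and tumour, and mostly the same way. Of 18646 genes tested with edgeR's quasi-likelihood test, 3809 (20.4%) rose and 2221 (11.9%) fell in the ILTCk path, and 3395 (18.2%) rose and 1736 (9.31%) fell in the conventional path, at an adjusted p under 0.05. Scaled to the CD3 chains instead, 98.3% of the ILTCk-path calls and 97.7% of the conventional-path calls were higher, against 63.2% and 66.2% here. Genes higher in both paths numbered 2412, which is 63.3% of the genes higher in the ILTCk path and 71% of those higher in the conventional path. Genes lower in both numbered 1200, or 54% and 69.1%. Opposite calls were few: 22 genes fell in the ILTCk path and rose in the conventional path, and 8 did the reverse. Leaving out 1 library at a time gave 1996 to 6515 calls in the ILTCk path, fewest without ILTCkP replicate 1, and 1292 to 4776 in the conventional path, fewest without CD8SP replicate 1.

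The shared falls held genes of the naive and recirculating state. Of 19 such genes 14 fell in each path, with a median log2 change of -2.26 in the ILTCk path and -3.36 in the conventional path, against medians over all genes of 0.34 and 0.40 and falls in 11.9% and 9.31% of them. Lef1, a transcription factor gene of naive and immature T cells, stood at 834 and 800.5 CPM in CD8SP and 686 and 548 CPM in ILTCkP. In the tumour it stood at 3.44 and 3.48 CPM in NK1.1+ ILTCk, with 17.8 and 13.1 CPM in PD1+ Tconv. It fell by 7.48 ± 0.44 (standard error, SE) in the ILTCk path and by 5.73 ± 0.41 in the conventional path (edgeR adjusted p = 0.000648 and 0.00119), and every thymic library was above every tumour library. Ccr7, the lymph node homing receptor gene, fell by 4.19 ± 0.75 and 4.68 ± 0.76 (edgeR adjusted p = 0.00565 and 0.00528).

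Of 15 cytotoxic genes measured, 7 rose in the ILTCk path and 9 in the conventional path, against 20.4% and 18.2% of all genes tested. How many of them rose in both paths was not counted. Gzmb, the granzyme B gene, named here after its values were seen, had 3.08 and 3.38 CPM in CD8SP, 11.1 and 7.57 in ILTCkP, 3010 and 566 in NK1.1+ ILTCk, with 1383 and 249 in PD1+ Tconv. All tumour libraries were above all thymic libraries, and the tumour groups overlapped. Its change was 7.58 ± 1.14 in the ILTCk path and 7.98 ± 1.16 in the conventional path (edgeR adjusted p = 0.0032 and 0.00391), and the paths differed by -0.40 ± 1.22 (edgeR adjusted p = 1). Klrb1c had 8.97 and 14.6 CPM in ILTCkP and 313 and 72.3 CPM in NK1.1+ ILTCk, against 0.804 and 0.215 CPM in CD8SP and 36.9 and 2.2 CPM in PD1+ Tconv. It rose by 4.03 ± 1.23 and 5.27 ± 1.36 (edgeR adjusted p = 0.0367 and 0.0233). NK1.1 was part of both tumour gates, so these levels were set in part by the sorts, and replicates of both tumour groups were far apart.

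The largest shared rises by the smaller of the 2 changes were not T cell genes. Mucl2, Scgb1b27, Scgb2b27, Car6, Bpifa2, Pip, Wfdc12 and Tm4sf1 had 0 or 1 count in either thymic group. Most of them encode secreted products of glands, and their levels differed widely between replicates: Mucl2 stood at 692 and 50830 CPM in NK1.1+ ILTCk. Whether gland or tumour material took part in other shared rises was not tested.

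**Figure D2:**
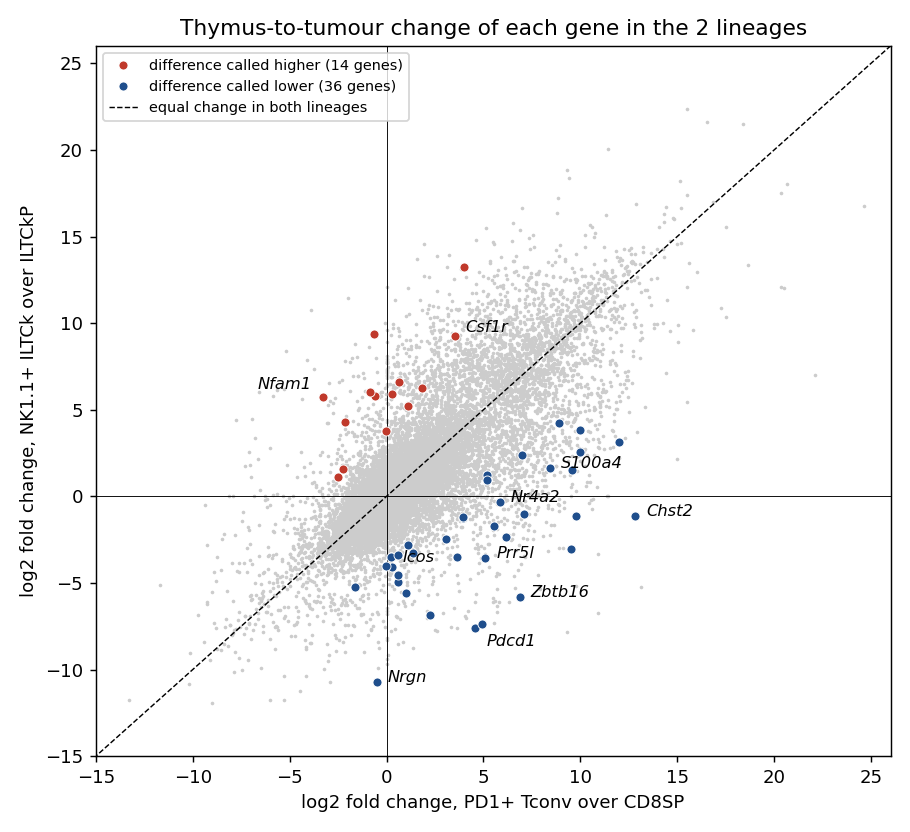
Log2 fold change of each of 18646 tested genes in the conventional path (horizontal) and the ILTCk path (vertical), with genes called for the difference coloured. The 36 genes with a lower ILTCk-path change lie below the line of equal change and the 14 with a higher one above it.

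The change differed between the lineages for 50 genes. The difference was higher for 14 genes (0.0751% of those tested) and lower for 36 (0.193%), and 2009 genes had an unadjusted p under 0.05. The smallest called difference was 3.60 on the log2 scale. Scaled to the CD3 chains, 264 genes were called, 191 higher and 73 lower, so that 72.3% were higher against 28% here, and the median difference over all genes was 1.27 against 0.0432. Of the 50 genes, 25 were still called under that scaling, 9 of the 14 and 16 of the 36, and the sign of all 50 was kept.

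Most of the 36 lower differences had a larger gap in the thymus than in the tumour. Of the 36 genes, 35 were higher in ILTCkP than in CD8SP, with a median gap of 5.79 on the log2 scale, and 27 were lower in NK1.1+ ILTCk than in PD1+ Tconv, with a median gap of -1.21. The thymic gap was the larger for 29 of them. Of the 14 higher differences, 13 were lower in ILTCkP than in CD8SP and 13 higher in NK1.1+ ILTCk than in PD1+ Tconv, and the tumour gap was the larger for 9. Over all 18646 genes tested, 8829 were higher in ILTCkP than in CD8SP and 9991 were higher in NK1.1+ ILTCk than in PD1+ Tconv. The thymic gap was the larger for 9191 of them. The gaps come from the same fit by which the genes were called, so their signs follow in part from that choice, and they are a description. Among the 36, Chst2, Esrp1, Rab39b and Zbtb16 had 0 counts in CD8SP. Vill, among the 14, had 0 counts in ILTCkP. The thymic gaps of these genes thus have no set size.

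Calls of the difference depended on single libraries. Only Pdcd1, Prr5l and Nrgn among the 50 were called under each of the 20 alternatives computed gene by gene, which leave out the glmTreat test against a minimum fold. Without CD8SP replicate 1, 8 of the 50 were still called (highest edgeR adjusted p = 0.164), without CD8SP replicate 2, 6 (0.203), without ILTCkP replicate 1, 4 (0.207), and without ILTCkP replicate 2, 3 (0.135). Without NK1.1+ ILTCk replicate 1, 16 were called (0.0869), without NK1.1+ ILTCk replicate 2, 10 (0.158), without PD1+ Tconv replicate 1, 5 (0.311), and without PD1+ Tconv replicate 2, 37 (0.103). Without NK1.1+ ILTCk replicate 2 and PD1+ Tconv replicate 2 together, the libraries with the fewest CD3 counts in their groups, 12 of the 50 were called, 3 of the 14 and 9 of the 36.

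Upstream sequences are shown for 3 genes of the lower set: Pdcd1 and Prr5l, called under each of those 20 alternatives, and Nr4a2, a gene induced by TCR signals. Each run is the 250 bases before the RefSeq start on GRCm38.p6, 5′ to 3′ on the gene's own strand, which is the minus strand for all 3, at chr1:94052554-94052803, chr2:101883028-101883277 and chr2:57124004-57124253. Prr5l has 3 starts in the table and the one farthest upstream is shown. Capitals mark GGAAA or its reverse complement TTTCC, the core letters bound by NFAT factors.
Pdcd1: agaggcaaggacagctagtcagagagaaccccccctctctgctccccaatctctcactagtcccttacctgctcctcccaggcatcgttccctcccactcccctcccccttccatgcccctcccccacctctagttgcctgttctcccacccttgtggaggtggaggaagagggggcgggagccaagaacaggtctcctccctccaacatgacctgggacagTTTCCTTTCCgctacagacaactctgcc
Prr5l: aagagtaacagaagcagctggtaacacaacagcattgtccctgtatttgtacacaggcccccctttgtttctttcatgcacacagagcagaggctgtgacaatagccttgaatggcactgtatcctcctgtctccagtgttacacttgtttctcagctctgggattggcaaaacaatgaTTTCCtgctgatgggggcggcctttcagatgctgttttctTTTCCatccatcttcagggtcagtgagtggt
Nr4a2: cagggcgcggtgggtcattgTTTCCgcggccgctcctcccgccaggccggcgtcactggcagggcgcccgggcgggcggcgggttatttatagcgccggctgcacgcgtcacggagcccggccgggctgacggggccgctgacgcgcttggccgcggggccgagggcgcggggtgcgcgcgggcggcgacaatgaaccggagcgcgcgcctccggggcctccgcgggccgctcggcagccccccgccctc
The 5 letters GGAAA occurred, on either strand, 2 times before Pdcd1, 2 times before Prr5l and 1 time before Nr4a2, and 55.6% of 32851 promoters of the same length held them at least once. The AP-1 letters TGANTCA (6.75% of promoters) and the NR4A letters AAAGGTCA (1.34%) occurred in none of the 3. The E-box letters CANNTG (66.2%) occurred 3 times before Prr5l. These matches are letters only.

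Pdcd1, which encodes the inhibitory receptor PD-1 (chromosome 1, 94038305 to 94052553), moved in opposite directions. It had 23.6 and 26.1 CPM in CD8SP and 1288 and 1235 CPM in ILTCkP, then 7.51 and 5.33 CPM in NK1.1+ ILTCk, with 703 and 486 CPM in PD1+ Tconv. The order of the lineages was thus reversed between the tissues, with no overlap in either. It fell by 7.62 ± 0.47 in the ILTCk path and rose by 4.58 ± 0.41 in the conventional path, a difference of -12.20 ± 0.62 (edgeR adjusted p = 0.000325). PD-1 itself was part of both tumour gates, so the tumour gap of its gene was set in part by the sort. The markers of the thymic ILTCkP gate are known only in part, and the share of that gate in the thymic gap was not tested.

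Prr5l, whose product binds the kinase complex mTORC2 (chromosome 2, 101714285 to 101883027), had 0.804 and 0.983 CPM in CD8SP and 274 and 259.8 CPM in ILTCkP. In the tumour it had 14.2 and 30.9 CPM in NK1.1+ ILTCk, with 36.6 and 24.8 CPM in PD1+ Tconv, where the lineages overlapped. It fell by 3.56 ± 0.47 in the ILTCk path and rose by 5.10 ± 0.51 in the conventional path (difference -8.66 ± 0.69, edgeR adjusted p = 0.00475). Both lineages thus stood near the same level in the tumour after a wide gap in the thymus.

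Nrgn, which encodes the calmodulin-binding protein neurogranin (chromosome 9, 37544492 to 37552904), was high in the progenitors and low in the other groups. It had 2.68 and 2.4 CPM in CD8SP, 932 and 558 in ILTCkP, 0.679 and 0.191 in NK1.1+ ILTCk, with 1.93 and 1.6 in PD1+ Tconv. It fell by 10.72 ± 0.72 in the ILTCk path, and the conventional path was -0.51 ± 0.50 (difference -10.21 ± 0.82, edgeR adjusted p = 0.00475).

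Susd2, Gsta4 and Spock2 were likewise high in ILTCkP and low in the other groups. Susd2, a sushi-domain membrane protein gene (chromosome 10, 75636706 to 75644008), had 179.9 and 255 CPM in ILTCkP and 2.78 to 8.44 CPM in the other 6 libraries (difference -6.59 ± 0.60, edgeR adjusted p = 0.00973). The Susd2 call was lost only without ILTCkP replicate 2, whereas those of Gsta4 and Spock2 were each lost on leaving out any of several libraries. Scaled to the CD3 chains, Susd2 and Spock2 were still called (edgeR adjusted p = 0.0421 and 0.00692) and Gsta4 was not (0.22). Gsta4, a glutathione transferase gene, had 106 and 155 CPM in ILTCkP and 1.98 to 5.14 CPM elsewhere (difference -5.53 ± 0.66, edgeR adjusted p = 0.0261). Spock2, a proteoglycan gene, had 100.5 and 56.8 CPM in ILTCkP and 0.317 to 6.49 CPM elsewhere (difference -9.09 ± 1.00, edgeR adjusted p = 0.0254). Eno3, the muscle-type enolase gene, differed from these in that it fell in both paths, by 5.20 ± 0.44 and by 1.60 ± 0.37, from 269 and 236 CPM in ILTCkP and 38.3 and 34.8 CPM in CD8SP (difference -3.60 ± 0.53, edgeR adjusted p = 0.0394).

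Zbtb16 is the gene of PLZF, which directs innate-like lymphocyte development (chromosome 9, 48654297 to 48836222). It had 0 counts in both CD8SP libraries and 258 and 74.3 CPM in ILTCkP, then 2.44 and 3.57 CPM in NK1.1+ ILTCk, with 0.833 and 0.152 CPM in PD1+ Tconv. It fell by 5.79 ± 0.87 in the ILTCk path. Pooled over both libraries it had 30 counts in PD1+ Tconv, most of them in replicate 1. The pooled level was at least 13.4-fold higher than in CD8SP, with 3 counts set over the CD8SP group. That bound does not describe replicate 2 alone. The edgeR adjusted p of the difference was 0.0394, and the replicates of ILTCkP differed widely. Of the 20 lineage transcription factor genes listed it was the 1 called for the difference, and 19 of the 20 had a negative difference (median -1.62, against 0.0432 over all genes). In the conventional path 10 of the 20 rose and none fell, and in the ILTCk path 4 rose and 6 fell, against 18.2% of all genes rising in the former and 20.4% rising and 11.9% falling in the latter. Tbx21 (T-bet), a factor of cytotoxic and type 1 cells, had 31.1 and 46.6 CPM in ILTCkP, 82.6 and 25.5 in NK1.1+ ILTCk, 4.12 and 3.47 in CD8SP and 145 and 73.2 in PD1+ Tconv. It rose by 4.85 ± 0.68 in the conventional path and stood at 0.47 ± 0.58 in the ILTCk path (edgeR adjusted p of the difference 0.0855).

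**Figure D3:**
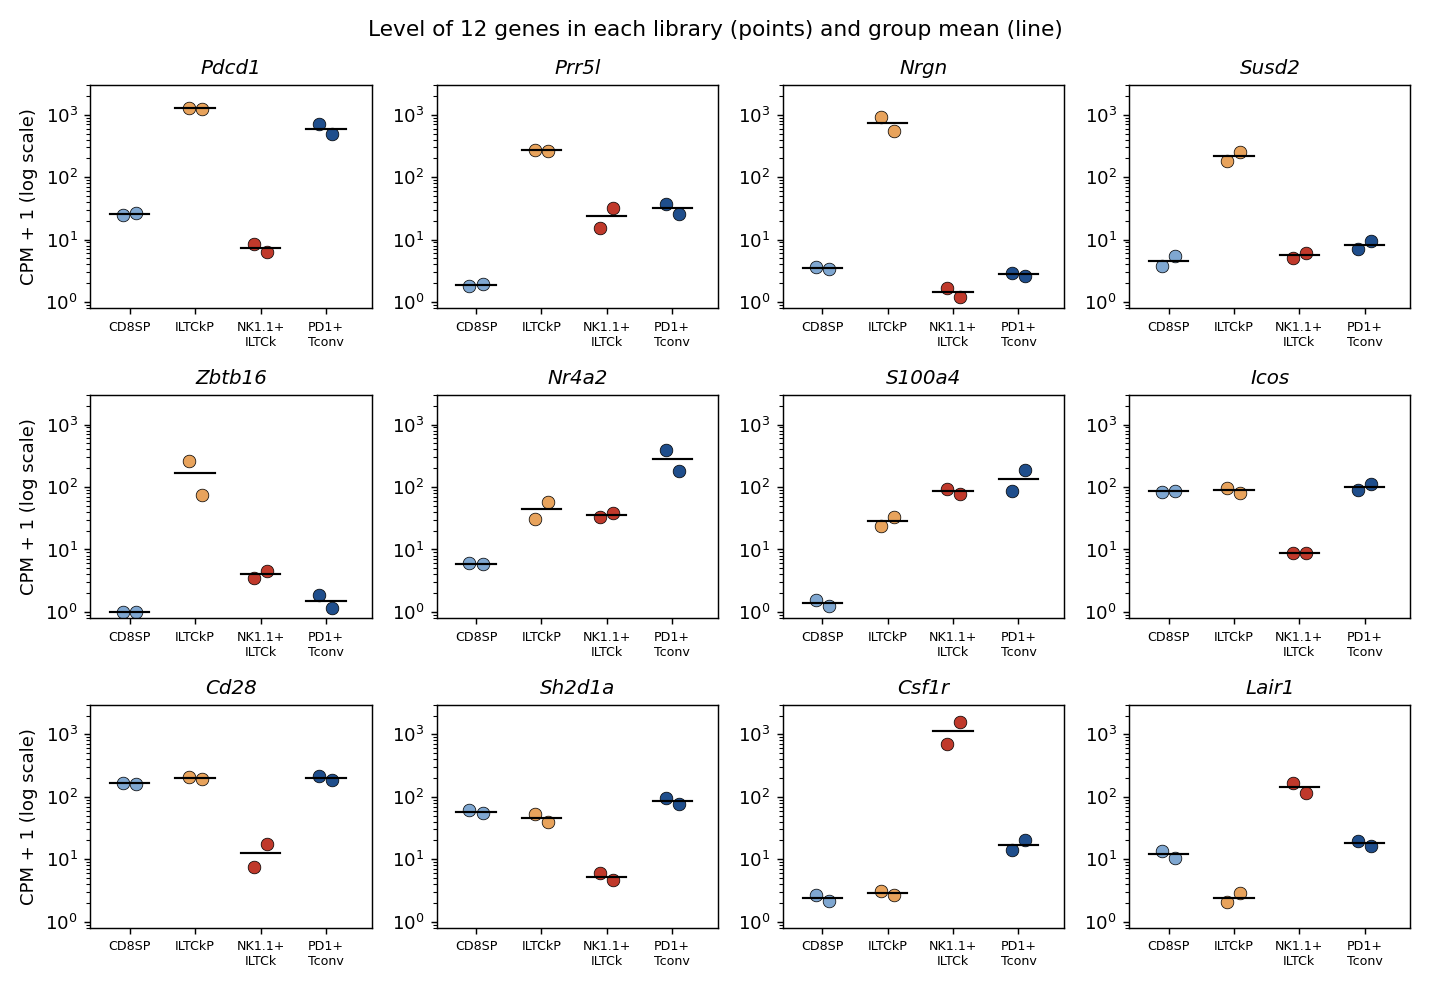
CPM plus 1, on a log axis, of 12 genes in each of the 8 libraries (points, 2 per group) with the group mean as a line. Prr5l, Nrgn, Susd2 and Zbtb16 are highest in ILTCkP, Icos, Cd28 and Sh2d1a are lowest in NK1.1+ ILTCk, and Csf1r and Lair1 are highest in NK1.1+ ILTCk.

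For other genes among the 36, ILTCkP already stood above CD8SP and the rise in the conventional path was the larger of the 2 changes. Nr4a2, an orphan nuclear receptor gene induced by TCR signals (chromosome 2, 57106830 to 57124003), had 5.09 and 4.79 CPM in CD8SP and 385 and 182 CPM in PD1+ Tconv. In the other lineage it had 29.6 and 56.7 CPM in ILTCkP and 32 and 37.7 CPM in NK1.1+ ILTCk, whose libraries lay within the progenitors' range. It rose by 5.84 ± 0.56 in the conventional path and stood at -0.31 ± 0.45 in the ILTCk path (difference -6.15 ± 0.69, edgeR adjusted p = 0.0254). Nr4a3, a related gene that was not called and stood level in the thymus, had 7.5 and 11.1 CPM in CD8SP, 9.81 and 8.91 in ILTCkP, 10.4 and 9.09 in NK1.1+ ILTCk, with 70 and 91.3 in PD1+ Tconv (difference -3.05 ± 0.56, edgeR adjusted p = 0.0795). Of 26 genes induced by antigen receptors or tied to agonist selection, 5 rose and 7 fell in the ILTCk path, and 5 rose and 5 fell in the conventional path. The rises were near the share of all genes tested, which was 20.4% and 18.2%, and 11.9% and 9.31% of all genes fell. Nr4a2 was the 1 of them called for the difference, with a median over the list of -0.97.

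S100a4 and S100a6, calcium-binding protein genes, were also higher in ILTCkP than in CD8SP and rose in both paths, more in the conventional path. S100a4 had 0.536 and 0.246 CPM in CD8SP, 22.6 and 31.7 in ILTCkP, 93.5 and 76.4 in NK1.1+ ILTCk, with 84 and 185 in PD1+ Tconv. Its rise was 1.65 ± 0.49 in the ILTCk path and 8.42 ± 0.67 in the conventional path (difference -6.77 ± 0.76, edgeR adjusted p = 0.0254), and the tumour groups overlapped. S100a6 rose by 2.36 ± 0.48 and 6.99 ± 0.60 (difference -4.63 ± 0.68, edgeR adjusted p = 0.0394). Myo1e, an unconventional myosin gene, had 0.904 and 1.47 CPM in CD8SP and 354 and 258 in ILTCkP, and 129 and 58.7 in NK1.1+ ILTCk, with 85.5 and 24 in PD1+ Tconv (difference -7.22 ± 0.97, edgeR adjusted p = 0.0274). H2-Q6, a non-classical MHC class I gene with close relatives among which reads could be split, rose by 1.21 ± 0.36 and 5.18 ± 0.43 (difference -3.97 ± 0.52, edgeR adjusted p = 0.0265). Chst2, a sulfotransferase gene, had 0 counts in CD8SP and 52.4 and 16.9 CPM in PD1+ Tconv. Pooled over both libraries the PD1+ Tconv level was at least 882-fold higher, with 3 counts set over the CD8SP group. That bound does not describe replicate 2 alone. Chst2 had 12.7 and 6.92 CPM in ILTCkP against 2.9 and 5.9 in NK1.1+ ILTCk (edgeR adjusted p of the difference 0.0261). Esrp1, an epithelial splicing factor gene, and Trf, the transferrin gene, were also among the 36 and were highest in NK1.1+ ILTCk, where Esrp1 had 40.1 and 45.3 CPM. Their levels stood beside the epithelial marker sums of 6584 and 7736 CPM in those libraries, and the part of those cells was not tested.

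Of 18 inhibitory receptor and exhaustion genes, 12 rose and none fell in the conventional path (median 4.34), and 3 rose and 4 fell in the ILTCk path (median -0.13). Over all genes tested 18.2% rose and 9.31% fell in the conventional path, and 20.4% and 11.9% in the ILTCk path. The difference was negative for 17 of 18, with a median of -3.30 against 0.0432 over all genes, and Pdcd1 alone was called. The tumour gates took PD-1+ Tconv and PD-1-negative ILTCk, and Pdcd1 is on this list. How far that sort set the levels of the other listed genes was not tested. Lag3, an inhibitory receptor gene, had 0.067 and 0.0614 CPM in CD8SP and 31.4 and 5.17 in PD1+ Tconv, and 12.1 and 14 in ILTCkP against 4.66 and 0.667 in NK1.1+ ILTCk (edgeR adjusted p of the difference 0.0654). Tigit had 3.72 and 2 CPM in CD8SP, 157 and 84.8 in PD1+ Tconv, 59.9 and 67 in ILTCkP and 52.9 and 9.05 in NK1.1+ ILTCk (difference -6.44 ± 1.11, edgeR adjusted p = 0.0667).

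Another kind of lower difference began level in the thymus. Icos, a costimulatory receptor gene (chromosome 1, 60977927 to 61000320), had 81.9 and 86.2 CPM in CD8SP, 95.7 and 80.4 in ILTCkP and 88.7 and 112 in PD1+ Tconv, but 7.74 and 7.86 in NK1.1+ ILTCk. It fell by 3.50 ± 0.35 in the ILTCk path and stood at 0.26 ± 0.31 in the conventional path (difference -3.75 ± 0.46, edgeR adjusted p = 0.0261). Cd28, the main costimulatory receptor of T cells (chromosome 1, 60716800 to 60773359), had 167 and 159, 209 and 189, 6.42 and 16.8, and 214 and 186 CPM in CD8SP, ILTCkP, NK1.1+ ILTCk and PD1+ Tconv (difference -4.39 ± 0.65, edgeR adjusted p = 0.0394). Sh2d1a, which encodes the adaptor SAP of the SLAM receptors (chromosome X, 42502453 to 42529330), had 59.5 and 53.9, 51.9 and 37.9, 4.98 and 3.62, and 95.5 and 76.2 CPM in the same order (difference -3.98 ± 0.53, edgeR adjusted p = 0.0267). For each of the 3 genes both NK1.1+ ILTCk libraries were below the other 6.

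The CD3 chains were also lowest in an NK1.1+ ILTCk library, and those 3 calls were lost when libraries were scaled to them: Icos at -2.54 (edgeR adjusted p = 0.627), Cd28 at -2.75 (0.587) and Sh2d1a at -2.88 (0.542). Without both low-CD3 tumour libraries the differences were -3.62 (edgeR adjusted p = 0.0695), -5.37 (0.0393) and -3.96 (0.0734). Of 19 genes of the TCR complex, coreceptors and costimulation, 2 rose and 8 fell in the ILTCk path (median -2.02), none rose and 4 fell in the conventional path (median -0.96), and Icos and Cd28 were called for the difference. Falls made up 11.9% and 9.31% of all genes.

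Of the coreceptor genes, Cd8a and Cd4 were part of the gates and Cd8b1 was in no tumour gate. Cd8a had 2056 and 1787 CPM in CD8SP and 14.2 and 33.8 in ILTCkP, and 898 and 155 in NK1.1+ ILTCk, with 1301 and 758 in PD1+ Tconv. It rose by 4.45 ± 0.86 in the ILTCk path, where the gate turned from CD8α-negative or dull to CD8α+, and stood at -0.90 ± 0.75 in the conventional path (edgeR adjusted p of the difference 0.101). Cd8b1, the CD8β gene, had 2957 and 2540 CPM in CD8SP and 6.93 and 10.8 in ILTCkP, and 35.3 and 21.3 in NK1.1+ ILTCk, with 674 and 825 in PD1+ Tconv. It rose by 1.68 ± 0.41 in the ILTCk path and fell by 1.88 ± 0.41 in the conventional path, but the difference did not pass (3.55 ± 0.58, edgeR adjusted p = 0.0614). Cd4 did not pass in either path (-1.03 ± 1.01 and 0.20 ± 1.00, difference -1.22 ± 1.42, edgeR adjusted p = 0.869). Cd5, a receptor gene that tracks TCR signal strength, fell in both paths, by 6.24 ± 0.77 and 2.73 ± 0.65 (difference -3.51 ± 0.90, edgeR adjusted p = 0.173).

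Of 19 ITAM adaptor and proximal signalling genes, whose products couple antigen, NK and Fc receptors to kinases, 5 rose and 8 fell in the ILTCk path (median -0.44), where 20.4% and 11.9% of all genes did. In the conventional path 6 rose and none fell (median 1.12), against 18.2% and 9.31% of all genes. Fcer1g and Tyrobp rose in both paths. Fcer1g had 1.34 and 1.47 CPM in CD8SP and 172 and 76 in PD1+ Tconv, and 178 and 214 in ILTCkP and 1463 and 1296 in NK1.1+ ILTCk. It rose by 6.45 ± 0.54 in the conventional path and 2.81 ± 0.45 in the ILTCk path (difference -3.64 ± 0.62, edgeR adjusted p = 0.066). Tyrobp, the DAP12 gene, rose by 5.38 ± 0.51 and 5.73 ± 0.51, with a difference of 0.35 ± 0.61 (edgeR adjusted p = 0.949). Macrophages express both adaptors, and their share of these levels beside the macrophage sums of 9354 and 26380 CPM was not tested. Of 22 NK receptor genes, 11 rose in the ILTCk path and 14 in the conventional path, none fell, and none was called for the difference (median -1.62), while 20.4% and 18.2% of all genes rose.

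The gamma-delta T cell list was negative for the difference in 8 of 8 genes (median -6.31), with Trdc called. Over all genes the median difference was 0.0432, and 0.193% were called lower. In the ILTCk path 1 of the 8 rose and 3 fell, against 20.4% and 11.9% of all genes. In the conventional path 4 rose and none fell, against 18.2% and 9.31%. Trdc, the δ-chain constant gene, had 15.8 and 13.9 CPM in CD8SP, 53.7 and 35.3 in ILTCkP, 2.35 and 1.43 in NK1.1+ ILTCk, with 27.2 and 18.1 in PD1+ Tconv. It fell by 4.55 ± 0.53 in the ILTCk path and stood at 0.61 ± 0.45 in the conventional path (difference -5.16 ± 0.68, edgeR adjusted p = 0.0265). Tcrg-C2, a γ-chain constant gene with near-identical relatives, had 1 and 0.399 CPM in CD8SP and 703 and 357 in PD1+ Tconv, and 78.5 and 217 in ILTCkP against 418 and 66.2 in NK1.1+ ILTCk (edgeR adjusted p of the difference 0.0513). The tumour gates left out TCRγδ+ cells.

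The 14 higher differences included genes of macrophages and antigen-presenting cells. Csf1r, the receptor gene for the macrophage growth factor CSF1, had 1.64 and 1.17 CPM in CD8SP, 2.07 and 1.64 in ILTCkP, 698 and 1577 in NK1.1+ ILTCk, with 13 and 19.1 in PD1+ Tconv. It rose by 9.26 ± 0.65 in the ILTCk path and 3.51 ± 0.51 in the conventional path (difference 5.75 ± 0.70, edgeR adjusted p = 0.0261). Cd74, the MHC class II invariant chain gene, had 62.1 and 64.3 CPM in CD8SP and 44.7 and 66.8 in ILTCkP, and rose to 5523 and 3067 in NK1.1+ ILTCk, with 175 and 271 in PD1+ Tconv (difference 4.45 ± 0.63, edgeR adjusted p = 0.0374). Both NK1.1+ ILTCk libraries were above all others for both genes.

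Pld4, Clec12a, Tlr7, Ifitm6 and Ctss, all expressed by myeloid cells, were in the same set, as was the peptide-loading gene H2-DMa. H2-DMa had 141 and 122 CPM in CD8SP, 93.7 and 61.3 in ILTCkP, 256 and 213 in NK1.1+ ILTCk, with 26.2 and 28.3 in PD1+ Tconv, so it rose by 1.60 ± 0.34 in one path and fell by 2.27 ± 0.35 in the other (difference 3.86 ± 0.49, edgeR adjusted p = 0.0263). All 14 macrophage and monocyte genes rose in the ILTCk path and 12 of 14 in the conventional path, against 20.4% and 18.2% of all genes. Their difference was positive for 13 of 14 (median 2.97, against 0.0432 over all genes), with Csf1r called. None of the 14 was at 0 in either tumour group, while Mrc1 and Fcgr1 were at 0 in CD8SP and Mrc1 and Ms4a7 in ILTCkP. The part of such cells in these differences was not tested.

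Tlr7 and others of the 14 began with a gap in the thymus. Tlr7 had 13.2 and 13.7 CPM in CD8SP and 0.766 and 1.13 in ILTCkP. Lair1, an inhibitory receptor gene for collagen, had 12.4 and 9.67 CPM in CD8SP, 1.03 and 1.85 in ILTCkP, 165 and 116 in NK1.1+ ILTCk, with 18.6 and 15.5 in PD1+ Tconv. It rose by 6.60 ± 0.52 in the ILTCk path and stood at 0.63 ± 0.41 in the conventional path (difference 5.97 ± 0.62, edgeR adjusted p = 0.0236). Nfam1, an ITAM receptor gene of B cells and myeloid cells, had 22 and 16.6 CPM in CD8SP, 3.06 and 1.34 in ILTCkP, 59.1 and 179 in NK1.1+ ILTCk, with 1.67 and 2.28 in PD1+ Tconv (difference 9.06 ± 0.97, edgeR adjusted p = 0.0244). Spsb1, an adaptor gene of a ubiquitin ligase, and Ms4a4c had tumour levels closer together. Spsb1 had 55.5 and 72.2 CPM in CD8SP, 4.37 and 3.28 in ILTCkP, 53.5 and 51.3 in NK1.1+ ILTCk, with 72.6 and 54 in PD1+ Tconv (difference 3.79 ± 0.52, edgeR adjusted p = 0.0334). Ms4a4c had 38.9 and 34.6, 0.766 and 1.79, 67.5 and 89.1, and 31.9 and 56.5 CPM in the same order (difference 5.65 ± 0.72, edgeR adjusted p = 0.0263). Rgs10, a regulator of G protein signalling, rose by 1.14 ± 0.32 in the ILTCk path and fell by 2.51 ± 0.34 in the conventional path (difference 3.65 ± 0.47, edgeR adjusted p = 0.0263).

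**Figure D4:**
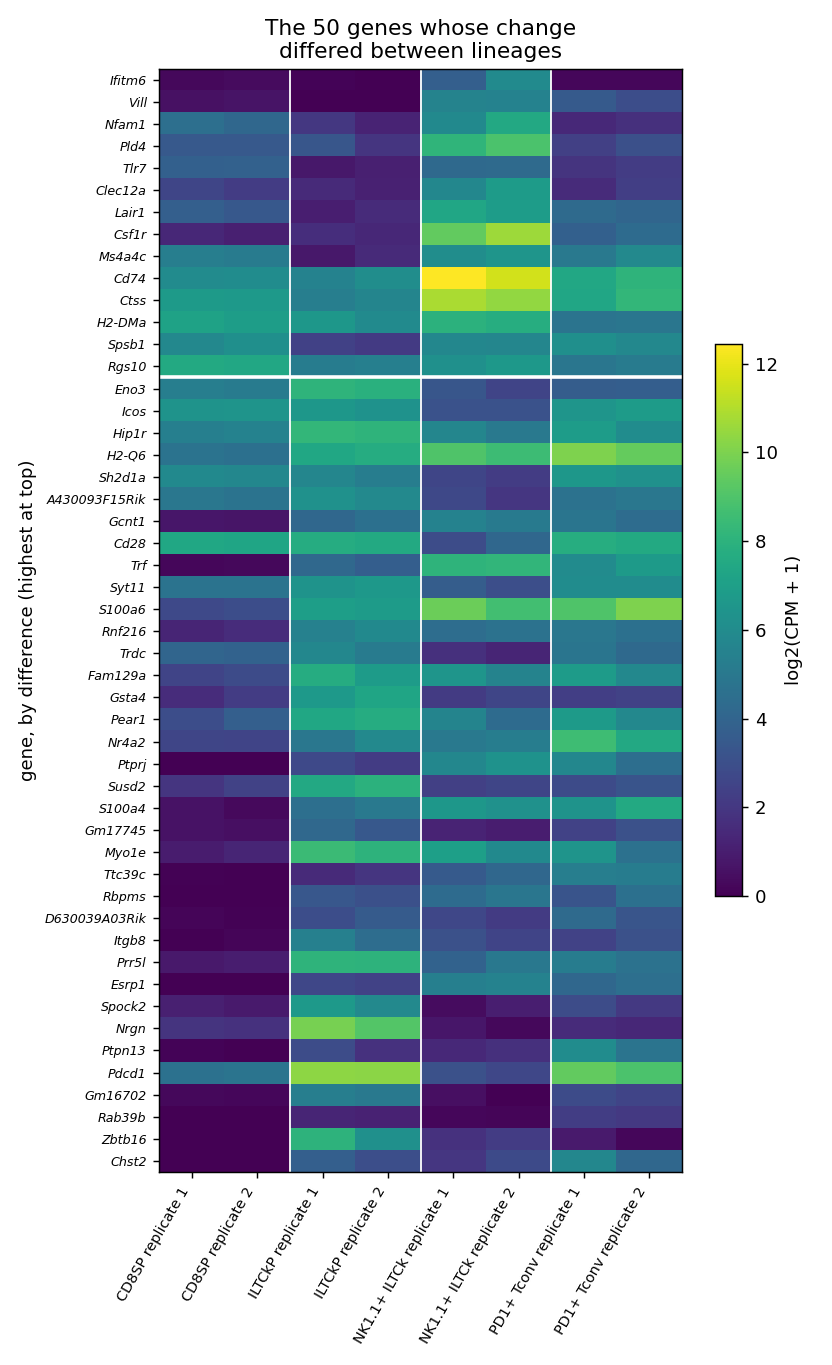
Log2(CPM + 1) in each library of the 50 genes whose change differed between the lineages, ordered by the difference with the white line between 14 higher and 36 lower. In the lower block ILTCkP is brighter than CD8SP for 35 of 36 genes, and in the upper block NK1.1+ ILTCk is brighter than PD1+ Tconv for 13 of 14.

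Of 28 interferon-stimulated genes measured, 14 rose and 1 fell in the ILTCk path (median 2.08), and 4 rose and none fell in the conventional path (median 0.19), against rises in 20.4% and 18.2% of all genes. The difference was positive for 27 of 28 (median 1.53, against 0.0432 over all genes), with none called. Mx1, an antiviral GTPase gene, had 10.8 and 12.8 CPM in CD8SP, 1.34 and 0.954 in ILTCkP, 30.3 and 67.2 in NK1.1+ ILTCk, with 56.4 and 73.6 in PD1+ Tconv, so ILTCkP was the lowest group and the tumour groups overlapped (difference 2.95 ± 0.67, edgeR adjusted p = 0.125). Oas2, which senses double-stranded RNA, had 26.4 and 25.7, 1.8 and 1.01, 17.1 and 169, and 7.53 and 36.7 CPM in CD8SP, ILTCkP, NK1.1+ ILTCk and PD1+ Tconv. Replicates of the tumour groups were far apart (difference 6.29 ± 1.5, edgeR adjusted p = 0.142).

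Of 30 cell cycle genes, 2 rose and 7 fell in the ILTCk path (median -0.96) and none rose and 17 fell in the conventional path (median -1.89). Their difference was positive for 28 of 30 (median 0.85, against 0.0432 over all genes), with none called. Over all genes 11.9% fell in the ILTCk path and 9.31% in the conventional path, and 20.4% and 18.2% rose. Ccr9, the thymic and gut homing receptor gene, had 491 and 464 CPM in CD8SP and 16.1 and 20.8 in ILTCkP, against 0.95 and 1.62 in NK1.1+ ILTCk, with 1.25 and 3.8 in PD1+ Tconv. It fell by 3.84 ± 0.57 and 7.61 ± 0.66 (difference 3.77 ± 0.76, edgeR adjusted p = 0.0915). Ifng, the interferon-γ gene, had 1.07 and 1.14, 1.42 and 1.01, 8.37 and 6.05, and 71.3 and 58.7 CPM in CD8SP, ILTCkP, NK1.1+ ILTCk and PD1+ Tconv. It rose by 2.57 ± 0.45 in the ILTCk path and 5.87 ± 0.52 in the conventional path (difference -3.31 ± 0.62, edgeR adjusted p = 0.0807).

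Il2rb, the shared receptor chain gene for IL-2 and IL-15, had 423 and 431 CPM in CD8SP, 5162 and 4673 in ILTCkP, 1080 and 221 in NK1.1+ ILTCk, with 1142 and 328 in PD1+ Tconv. It fell by 2.92 ± 0.80 in the ILTCk path and stood at 0.78 ± 0.75 in the conventional path (difference -3.70 ± 1.09, edgeR adjusted p = 0.236). The tumour groups overlapped. Of the 22 cytokine receptor and signalling genes, 5 rose and 5 fell in the ILTCk path, 6 rose and 3 fell in the conventional path, and none was called for the difference. Over all genes tested 20.4% rose and 11.9% fell in the ILTCk path, and 18.2% rose and 9.31% fell in the conventional path.

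**Figure D5:**
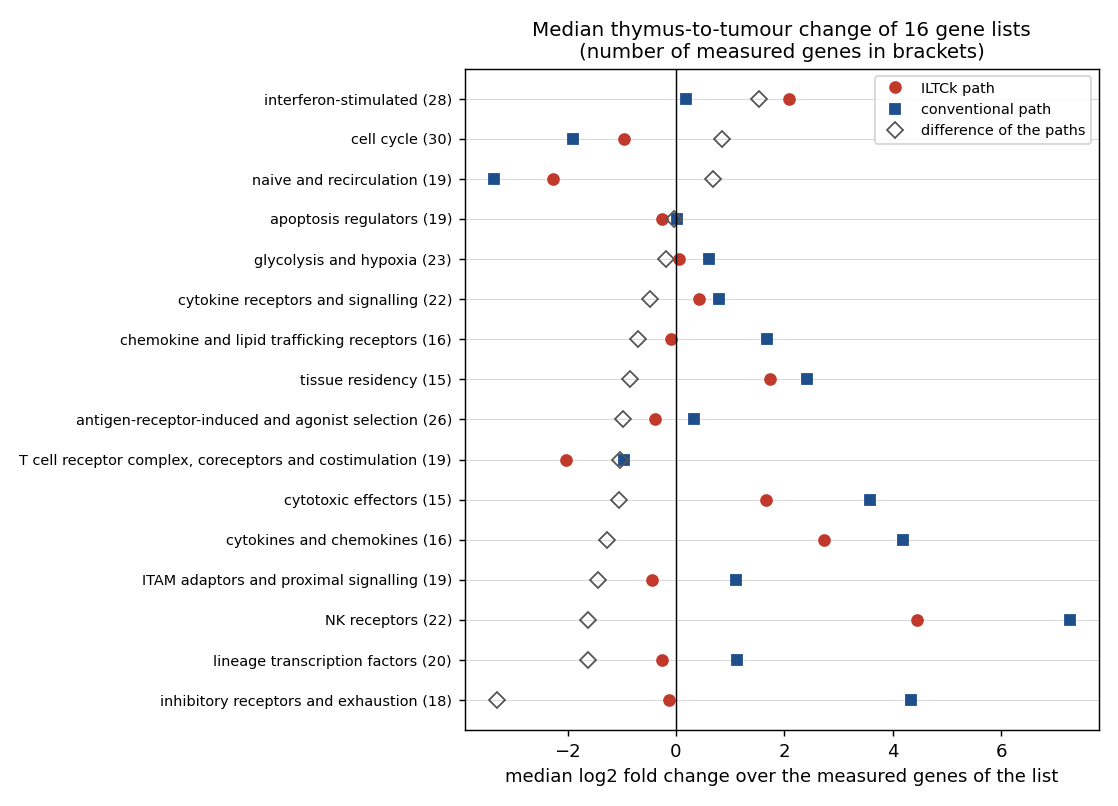
Median log2 change of 16 gene lists in the ILTCk path, the conventional path and their difference, ordered by the median difference. Inhibitory receptors have the lowest median difference (-3.30) and interferon-stimulated genes the highest (1.53), and points do not mark a test. The tumour groups were sorted in opposite directions on PD-1, whose gene is in the inhibitory receptor list.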

How the data were processed

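Bulk RNA-seq counts per gene were used for 8 libraries, 2 per group, from a thymic and a tumour table joined on gene symbol. The count tables are as deposited by the authors; per the submitters' processing notes the build was mm10 and DESeq was among the tools, and the aligner is not given in the sources used here. Of 50508 genes, 18646 passed edgeR's filterByExpr. Counts were scaled by TMM and fitted with 4 group means by edgeR 4.0.16 (quasi-likelihood, robust) in R 4.3.3. Groups followed the sample titles where the characteristics differed. Changes were called at a Benjamini-Hochberg adjusted p under 0.05 over all genes tested. Scripts were tested on simulated data.

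The members and the 28 gene lists were chosen with earlier results of these data known. Named genes were 8 fixed genes, up to 14 per direction of the difference with a mean log2 CPM of at least 4 and separated library-to-library changes, up to 4 per list described and up to 8 per direction changed alike in both paths. Other called genes are also named. Gzmb was named after its values were seen, and a few further genes follow from counts. Ratios against 0 counts used 3 counts over the group and cover counting error only. Total counts of 16530085 to 32097301 per library bear on counting error, and the SEs also hold the spread between replicate libraries.

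Alternatives were RLE, upper-quartile and CD3 chain scaling, DESeq2 1.42.0, limma 3.58.1 voom, glmTreat, other filters, 10 libraries, replicate blocks and leaving out each library. Leaving out both low-CD3 tumour libraries was added after seeing the data. Promoters came from RefSeq and gene coordinates from GENCODE, both on GRCm38.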

Additional observations from a re-analysis of the deposited data

Results flagged for a closer look

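The change from thymus to tumour differed between the ILTCk and the conventional lineage, by edgeR's test of the difference itself, for 50 genes. The edgeR adjusted p was 0.000325 for Pdcd1, 0.00475 for Nrgn and Prr5l, 0.00973 for Susd2. With the same test it was 0.0236 for Lair1, 0.0244 for Nfam1, 0.0254 for Nr4a2, S100a4 and Spock2. By edgeR the adjusted p stood at 0.0261 for Chst2, Csf1r, Esrp1, Gm16702, Gsta4, Icos, Itgb8, Rnf216, Syt11 and Tlr7, 0.0263 for H2-DMa, Ms4a4c, Pld4 and Rgs10, 0.0265 for Clec12a, H2-Q6, Ptpn13, Trdc, Trf and Vill. The edgeR adjusted p was 0.0267 for Sh2d1a, 0.0274 for D630039A03Rik and Myo1e, 0.0334 for Spsb1. With the same test it was 0.0359 for Gm17745, 0.0374 for Cd74 and Ifitm6, 0.0386 for Ctss and Fam129a. By edgeR the adjusted p stood at 0.0394 for Cd28, Eno3, Gcnt1, Hip1r, Pear1, Rab39b, S100a6, Ttc39c and Zbtb16, 0.0428 for Rbpms, 0.0482 for A430093F15Rik and Ptprj. Pdcd1 and Trdc were touched by the tumour gates. The calls rest on 2 libraries per group, and their dependence on single libraries is given above.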

How the results depend on the processing

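The count of genes whose change differed between the lineages depended on the model and the libraries. Against 50 genes, CD3 chain scaling gave 264, DESeq2 719, no filter on low counts 994, at least 10 CPM in the thymus 134, and 10 libraries 119. RLE scaling (56), upper-quartile scaling (60), limma voom (71), glmTreat (46) and at least 50 counts in 2 libraries (57) stayed within 1.5 times. The 10 CPM thymic filter also gave 2643 genes in the ILTCk path and 1795 in the conventional path, out of 8425 genes tested. Leaving out both low-CD3 tumour libraries, chosen after seeing the data, gave 24 genes for the difference and 3193 in the conventional path. Leaving out 1 library gave 3 to 57 genes for the difference, 1996 to 6515 for the ILTCk path and 1292 to 4776 for the conventional path; the lone library was then assumed to vary like the other groups. With the replicate number as a block 125 genes were called, and 492 were called with the replicate block set within each table. Deviations of same-numbered libraries correlated across genes at 0.179 in the thymic pair, 0.407 in the tumour pair and -0.0296 to -0.135 across tables. The tumour pair had the largest coefficient, and that of the thymic pair was little larger in size than the most negative one across tables. The labels do not say what a number marks, so the pairing within tables was not settled. RLE and upper-quartile scaling moved the median of all genes in the conventional path to 0.54 and 0.55 from 0.40, and upper-quartile scaling moved that of the difference to -0.13. The difference of 5 genes that were not called changed sign: leaving out 1 library at a time it ran from -2.65 to 1.83 for Klrb1c, -2.18 to 1.48 for Cd4, -0.34 to 0.80 for Tyrobp, -2.05 to 1.23 for Gzmb and -0.16 to 1.62 for Ccr7, and CD3 chain scaling gave 0.20 for Gzmb. The cause of these shifts was not tested.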

Other observations

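NK1.1- ILTCk, a further tumour group of 2 libraries whose gate is not given in the sources used here, entered no comparison. With 10 libraries scaled together, Pdcd1 stood there at 19.4 and 29.8 CPM, Nrgn at 0.258 and 0.14 CPM and Prr5l at 17.9 and 10.1 CPM. Nr4a2 stood at 33.7 and 35.7 CPM, and Zbtb16, the PLZF gene, at 1 and 0.419 CPM. Icos stood at 39 and 72.5 CPM, Cd28 at 50 and 64.5 CPM and Sh2d1a at 11.8 and 15.8 CPM. Csf1r stood at 210.2 and 90.7 CPM and Lair1 at 45.9 and 41.9 CPM. These values carry no test.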
